A study of Mus musculus with 18 samples.

Results

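The 9 protein-coding genes that earlier work in other tissues and cell types had described as targets of miR-181 were followed here through the livers and liver tumours of mice that lack a miR-181 gene pair. They were taken by name from that earlier work, with earlier results of these data known, and are the survival genes Bcl2 and Mcl1, the transcription factor genes Gata6 and Prox1, the signalling genes Nlk, Ptpn11, Cyld and Ptpn22, and the DNA damage kinase gene Atm. Each of the 9 symbols matched 1 row of the 54838 genes in the table.

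RNA-seq had been run on 18 samples in 6 groups of 3, all from C57BL/6 mice aged 36 weeks by the labels. Tumours and non-tumours (liver around the tumours) came from mice given 1 intraperitoneal injection of 25 mg/kg diethylnitrosamine (DEN), a liver carcinogen, at postnatal day 12, and normal livers came from untreated mice. WT mice carried the miR-181ab1 locus, and GKO mice had lost it in the whole body, so every cell type of the GKO liver lacked it. The genes Mir181a-2, Mir181b-2, Mir181c and Mir181d, on other chromosomes, were left in place. The labels did not say which tumour and non-tumour came from the same mouse, or that replicates came from separate mice, so p-values measured the spread between these samples. In the table Mir181a-1 had 1 read in 1 sample and the other 5 miR-181 precursor genes had none in any, which mRNA libraries rarely hold, so the deletion could not be checked here.

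MicroRNAs are short RNAs that guide Argonaute proteins to complementary stretches of messenger RNA, mostly in the 3′ UTR, the untranslated part after the stop codon. Pairing through the seed, the bases near the 5′ end of the microRNA, lowers translation and often the level of the message. The miR-181 family is best known from lymphocyte development, where it tunes antigen receptor signalling, and the level of a target's message in a knockout is one of the places where its loss can show. The 4 mature family members are shown because they share 1 seed, in capitals (bases 2 to 8), and because only miR-181a and miR-181b are made from the deleted locus. The sequences are those of RefSeq on GRCm38.p6.
miR-181a-5p: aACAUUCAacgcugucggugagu
miR-181b-5p: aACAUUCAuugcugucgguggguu
miR-181c-5p: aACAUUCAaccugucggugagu
miR-181d-5p: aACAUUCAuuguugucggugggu

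The deleted copies lie on chromosome 1 (miR-181a-5p from Mir181a-1 at chr1:137966468-137966490 and miR-181b-5p from Mir181b-1 at chr1:137966650-137966673, plus strand, GRCm38.p6). The copies from Mir181a-2 and Mir181b-2 on chromosome 2 have the same mature sequences, so a site in a target can be read by a family member that the GKO mice retain.

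The annotated 3′ UTRs (GENCODE M21, mm10) were searched on the transcript strand for the 3 words that pair with this seed. These were TGAATGTA (8mer), TGAATGT without the last A (7mer-m8) and GAATGTA without the first T (7mer-A1), with an 8mer counted once and not also as a 7mer. Of the 9 genes, 7 held at least 1 of them in some annotated transcript, against 4623 (22%) of 21021 coding genes of the table, whose longest 3′ UTRs had a median of 960 bases. In 7 of the 9 the longest 3′ UTR exceeded that median, and among genes with a 3′ UTR of 0.8 to 1.2 times the length the share with a word was 60.7% for Bcl2 (5086 bases), 61.3% for Prox1 (5185 bases), 59.2% for Cyld (4932 bases) and 10.1% for Atm (597 bases). A match is a description of the letters and not evidence of a working site.

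The 8mers, the longest of the 3 words, are printed for Bcl2, Prox1 and Atm (that of Gata6 is counted but not shown), and the matches of Nlk, Cyld and Mcl1 because they were their only matches. The match is in capitals, with 10 bases on each side in lower case.
Bcl2 8mer: taatcaggacTGAATGTAgataatgggt
Prox1 8mer near the stop codon: aacgctctttTGAATGTAtggatagaag
Prox1 8mer near the 3′ end: tctcctaaacTGAATGTAtgtgcagtat
Atm 8mer: ctcattagaaTGAATGTAggtagggctg
Nlk 7mer-m8: acttgaaactTGAATGTcccttccaac
Cyld 7mer-m8: tctggttgacTGAATGTggcattttca
Mcl1 7mer-A1: aaatgactaaGAATGTAatagggaaga

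On mm10 the capitals of Bcl2 lie at chr1:106539830-106539837, those of Prox1 at chr1:190123195-190123202 and chr1:190118087-190118094, and those of Atm at chr9:53439249-53439256, all on the minus strand. The match of Nlk is at chr11:78567714-78567720 on the minus strand, that of Cyld at chr8:88749828-88749834 on the plus strand and that of Mcl1 at chr3:95662532-95662538 on the plus strand. All lie in 3′ UTR exons. The 8mer of Prox1 near the stop codon was in 3 of 3 coding transcripts and the match of Nlk in 2 of 2, whereas the 8mers of Bcl2 and Atm were in 1 of 2 and the 7mer-m8 of Cyld in 4 of 7. Gata6 held 1 8mer, in its single coding transcript with a 3′ UTR of 1153 bases. Prox1 had a further 2 7mer-m8 words, each of which, like its 8mer near the 3′ end, was in 1 of 3 coding transcripts. Bcl2 had a further 1 7mer-m8 and 2 7mer-A1 words. Ptpn11 (3635 bases) and Ptpn22 (207 bases) held none of the 3 words in this window.

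**Figure D1:**
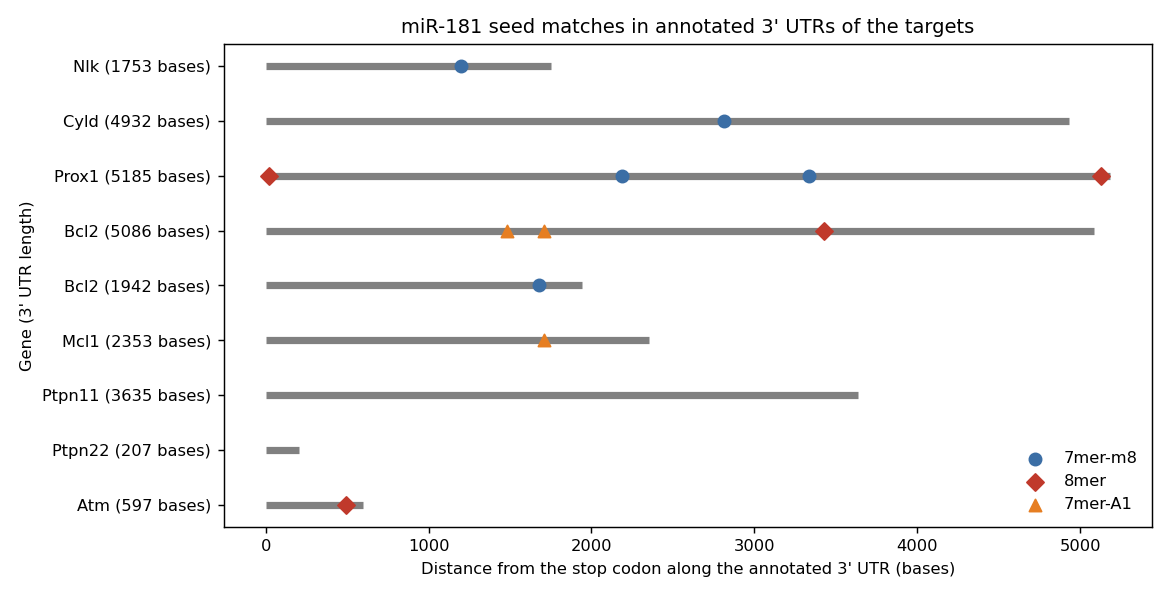
Each grey bar is an annotated 3′ UTR drawn from the stop codon, with its length in bases on the x axis, and symbols mark 8mer, 7mer-m8 and 7mer-A1 matches to the miR-181 seed in Nlk, Cyld, Prox1, Bcl2, Mcl1, Ptpn11, Ptpn22 and Atm. Prox1 holds 4 matches along 5185 bases, Bcl2 has matches in each of its 2 annotated 3′ UTRs, and Ptpn11 and Ptpn22 have none.

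Values are TPM, which corrects the reads of each gene for gene length and sets every sample to 1 common total, so levels of different genes can be set side by side. The samples held 11925055 to 20751348 reads on genes, and every replicate pair differed by far more than counting noise. The 8 hepatocyte markers, which include Alb and Apoa1, were high in every sample, as fits the labelled tissue. These were pieces of whole tissue, in which fewer cells of a type and less RNA per cell cannot be told apart. Marker sums moved with tissue and with genotype, and their part in the results below was not tested. Hepatocyte markers summed to 169295 to 208501 TPM in tumours and to 72800 to 98555 TPM in non-tumours. Most of each sum was Alb and Apoa1. Alb was at 83554.5 to 139816 TPM in tumours and 23910 to 41169 TPM in non-tumours, and Apoa1 at 42343 to 92169 and 19543 to 34321 TPM. Ttr, Tat, Cps1, Ass1 and Serpina1c overlapped between tumours and non-tumours. Cyp2e1 of the same list was lower in tumours, at 18.8 to 1446 TPM beside 3056 to 9357 TPM in non-tumours. The 6 macrophage markers summed to 27.3 to 74.9 TPM in GKO tumours and 80.7 to 354 TPM in GKO non-tumours, without overlap. Not all 6 were lower in GKO tumours. Log2 fold changes were negative for Clec4f (-3.51), Marco (-3.25), Timd4 (-2.06) and Csf1r (-0.78) and positive for Adgre1 (0.36) and Cd68 (0.074). The 6 stellate cell and fibroblast markers summed to 62.2 to 135 TPM in GKO tumours and 32.5 to 52.6 TPM in WT tumours, and to 56.6 to 79.0 TPM in GKO and 36.3 to 38.2 TPM in WT normal livers. The 5 cholangiocyte markers were at 37.6, 959 and 549 TPM in the 3 GKO tumours and 22.2 to 53.8 TPM in WT tumours, and in normal livers at 82.8 to 92.2 TPM (GKO) and 33.1 to 50.5 TPM (WT). In GKO tumours most of the sum was 1 gene, Spp1, at 33.95, 934 and 536 TPM, and the other 4 markers summed to 3.65, 25.04 and 12.5 TPM there and 11.3 to 11.8 TPM in WT tumours. In normal livers the other 4 summed to 8.01 to 13.9 TPM in GKO and 5.75 to 10.2 TPM in WT, and these overlapped. These sums join markers that moved in different directions. Log2 fold changes of GKO over WT were positive for Krt19 (1.39 in normal livers, 1.18 in tumours) and Epcam (0.48, 1.55). Those of Sox9 were negative (-0.20, -1.01), and Krt7 was too low to test. None had an adjusted p under 0.05 (limma). The 6 endothelial markers differed in normal livers, at 44.0 to 55.1 TPM in GKO and 26.2 to 30.4 TPM in WT.

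The question asked of each tissue was whether messages of these targets differed between GKO and WT. None of the members that could be tested was called in any tissue (limma on log2(TPM + 1), threshold an adjusted p of 0.05, by Benjamini-Hochberg over all genes tested). In tumours the count was 0 of 7, where 0.0215% of 13964 genes were called (3 genes, and 0 with same-numbered tumours as a replicate block), in non-tumours 0 of 7, where 0% of 13768 were called, and in normal livers 0 of 6, where 0% of 13099 were called. With tissue as a covariate and all 18 samples, 0 of 7 were called, and 0% of 13914 genes. At an unadjusted p under 0.05 the counts were 1 in tumours (Bcl2; 8.87% of all genes), 0 in non-tumours (5.80%), 1 in normal livers (Mcl1; 3.96%) and 0 over the 3 tissues (7.09%). With voom on recovered reads the count called was 0 in each.

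The sign of the differences followed the tissue. All 7 tested members had a positive log2 fold change in GKO tumours, where 8375 of 13964 genes did, and the median over the members was 0.25 beside 0.087 over all genes. In non-tumours all 7 were negative, with a median of -0.22 beside -0.15 over all genes, of which 33.5% were positive. With each sample centred on its median gene, the median over all genes in non-tumours moved to 0.018 and Cyld (0.057) and Bcl2 (0.031) became positive, and in tumours Nlk became negative (-0.016). In normal livers 5 of 6 were positive, beside 62.4% of all genes, with medians of 0.074 and 0.064.

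**Figure D2:**
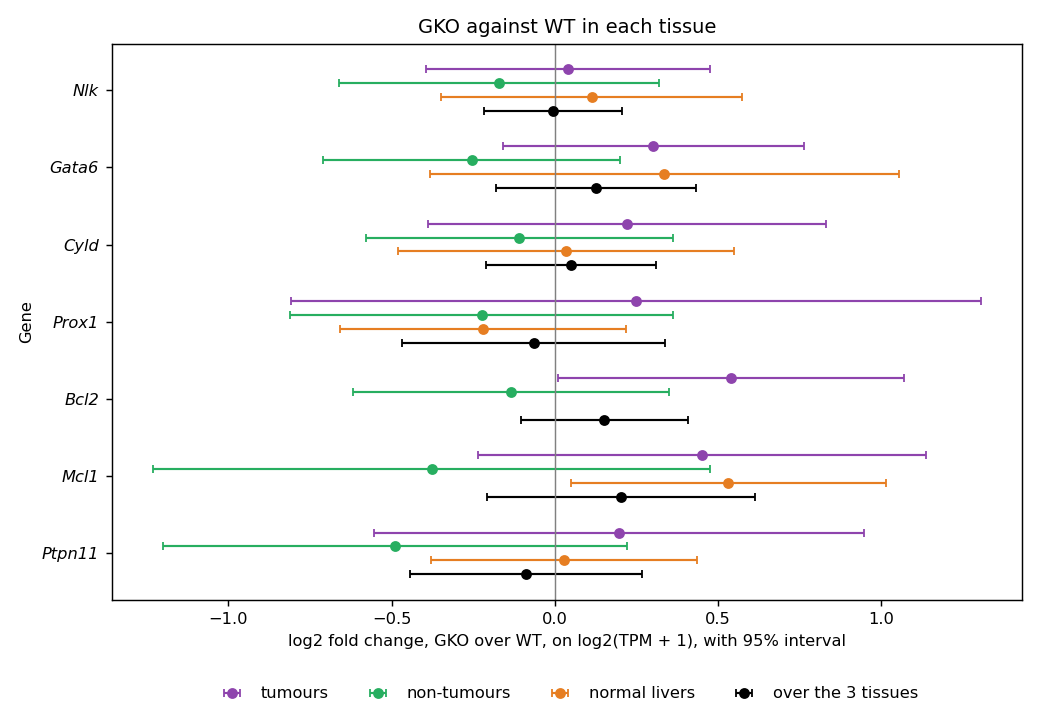
The x axis is the log2 fold change of GKO over WT on the log2(TPM + 1) scale, with 95% intervals from limma, for the 7 genes that passed the filter on low values, in tumours, non-tumours, normal livers (3 against 3 samples each) and over the 3 tissues. Most intervals include 0. Those of Bcl2 in tumours (0.01 to 1.07) and Mcl1 in normal livers (0.05 to 1.01) start just above it, and neither passed the adjustment over all genes.

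Bcl2 and Mcl1 encode guardians of the mitochondrial outer membrane, which bind and restrain the pore-forming proteins BAX and BAK and so keep cells alive. Bcl2 (ENSMUSG00000057329, chr1:106538178-106714274, minus strand) was low in every normal liver and non-tumour group and as low in WT tumours. Mcl1 (ENSMUSG00000038612, chr3:95658788-95663176, plus strand), a survival protein on which hepatocytes depend, was the highest of the 9 genes in all 6 groups.

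Bcl2 stood at 0.515, 0.745 and 0.557 TPM in WT tumours and at 0.851, 1.66 and 1.57 TPM in GKO tumours. All 3 GKO tumours lay above all 3 WT tumours, as was the case for 9.88% of the genes tested in tumours. The log2 fold change was 0.54 with an SE of 0.22 (limma, 95% interval 0.01 to 1.07, unadjusted p = 0.0467, adjusted p = 0.559, and 0.0589 and 0.474 with the replicate block), and 3 against 3 samples cannot give an exact permutation p below 0.1, the value found. This fold change is on log2(TPM + 1), which understates changes at such low levels. Mean levels were 0.606 TPM in WT tumours and 1.36 TPM in GKO tumours. In the other tissues the genotypes overlapped. Non-tumours were at 0.518, 1.08 and 0.522 TPM in WT and 0.544, 0.585 and 0.488 TPM in GKO, with a log2 fold change of -0.13 with an SE of 0.20. Normal livers were at 0.499, 0.270 and 0.408 TPM in WT and 0.441, 0.583 and 0.308 TPM in GKO, below the filter of a mean of 0.5 TPM, so Bcl2 had no limma test there. Outside the GKO tumours only WT non-tumour 2 exceeded 0.745 TPM. The 2 GKO tumours with the highest Bcl2, 2 and 3, were also those with high Spp1. The other 4 cholangiocyte markers summed to 3.65, 25.04 and 12.5 TPM in GKO tumours 1, 2 and 3 and to 11.3 to 11.8 TPM in WT tumours. A link of these markers to Bcl2 was not tested.

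Mcl1 was at 39.4, 33.0 and 41.5 TPM in WT normal livers and at 70.1, 53.2 and 44.8 TPM in GKO normal livers. The GKO values all lay above the WT values, as did those of 6.23% of the genes tested in normal livers. The log2 fold change was 0.53 with an SE of 0.21 (limma, unadjusted p = 0.0348, adjusted p = 0.999). In tumours Mcl1 ranged from 52.6 to 89.6 TPM in WT and from 72.4 to 120 TPM in GKO, with a log2 fold change of 0.45 with an SE of 0.29, and the groups overlapped. The GKO tumour held more Mcl1 than the WT tumour of the same number for all 3 numbers, which no label ties to pairs. With the numbers as a replicate block the SE was 0.18 (limma, unadjusted p = 0.059, adjusted p = 0.475). In non-tumours it ranged from 57.1 to 113 TPM in WT and from 42.0 to 84.6 TPM in GKO, and the log2 fold change was -0.38 with an SE of 0.36.

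**Figure D3:**
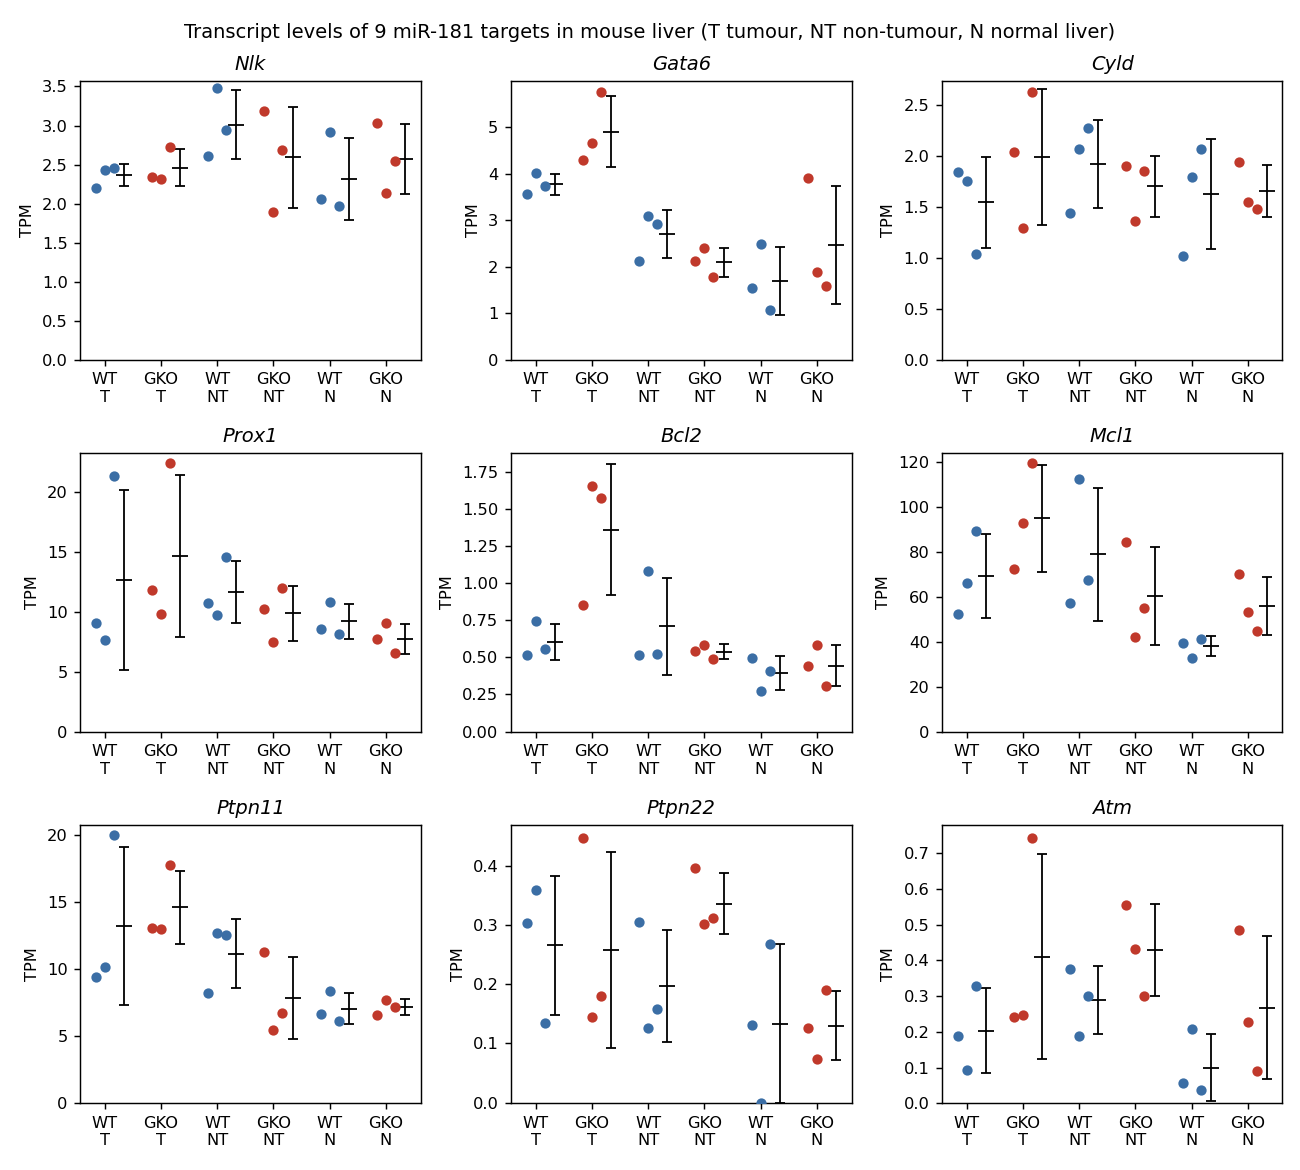
Each panel gives 1 gene in TPM on an axis that starts at 0, except that the axis of Ptpn22 runs below 0 to hold an error bar. Points are single samples of WT (blue) and GKO (red) tumours (T), non-tumours (NT) and normal livers (N), in label order from replicate 1 to 3, and the black mark beside them is the mean ± SD (n = 3). Gata6 was highest in tumours, the GKO tumours stood above the WT tumours for Gata6 and Bcl2, and Ptpn22 and Atm stayed at or below 0.742 TPM throughout.

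Gata6 encodes a zinc finger factor of endoderm development, and Prox1 a homeobox factor that hepatoblasts need to spread and that also specifies lymphatic endothelium. Gata6 (ENSMUSG00000005836) was at 3.57, 4.003 and 3.73 TPM in WT tumours and at 4.29, 4.66 and 5.75 TPM in GKO tumours. These groups did not overlap, as was the case, with GKO higher, for 9.88% of the genes tested in tumours. Of the 12 other samples only 1 GKO normal liver, at 3.91 TPM, reached the level of a tumour. The log2 fold change in tumours was 0.30 with an SE of 0.19 (limma, unadjusted p = 0.166, adjusted p = 0.688). In non-tumours Gata6 was at 2.11, 3.09 and 2.92 TPM in WT and 2.12, 2.39 and 1.77 TPM in GKO, with a log2 fold change of -0.25 with an SE of 0.19. In normal livers it was at 1.54, 2.49 and 1.06 TPM in WT and 3.91, 1.89 and 1.59 TPM in GKO, where 1 GKO liver stood well above the other 5. Ordered by mean level, the tumour groups led, GKO tumours (4.90 ± 0.76 TPM, SD, n = 3) before WT tumours (3.77 ± 0.22 TPM) and these before WT non-tumours (2.71 ± 0.52 TPM), each apart from the next by more than the SDs. The remaining groups overlapped within their SDs.

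Prox1 (ENSMUSG00000010175, chr1:190118035-190170714, minus strand), the gene with the most 8mer words of the 9, was at 9.03, 7.62 and 21.3 TPM in WT tumours and at 11.8, 9.79 and 22.4 TPM in GKO tumours, so that 1 tumour of each genotype held about the same high level. The log2 fold change in tumours was 0.25 with an SE of 0.45, and the interval, -0.81 to 1.31, was the widest of the 7 in that tissue. Prox1 too was higher in the GKO tumour for all 3 numbers, with an SE of 0.19 under the replicate block (limma, adjusted p = 0.671). In non-tumours Prox1 ranged from 9.71 to 14.6 TPM in WT and from 7.44 to 12.0 TPM in GKO, and in normal livers from 8.16 to 10.8 TPM and from 6.54 to 9.05 TPM. Both had log2 fold changes of -0.22, with SEs of 0.25 and 0.19.

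Nlk, Ptpn11 and Cyld encode enzymes of signalling. NLK is a kinase that acts on TCF/LEF factors and Notch, SHP2, the product of Ptpn11, is a phosphatase that carries receptor signals to RAS, and CYLD removes linear and lysine-63-linked ubiquitin from proteins that activate NF-κB. Nlk (ENSMUSG00000017376, chr11:78567168-78697373, minus strand) varied least, between 1.90 and 3.48 TPM over the 18 samples. Its values were 2.20, 2.44 and 2.45 TPM in WT tumours and in GKO tumours 2.34, 2.31 and 2.73 TPM, which overlapped. Over the 3 tissues its log2 fold change was -0.0058 with a 95% interval of -0.22 to 0.21, the narrowest of the 7. That interval is for 1 difference taken as common to the tissues and does not bound the difference in each. The 95% interval was -0.39 to 0.47 in tumours, -0.66 to 0.32 in non-tumours and -0.35 to 0.57 in normal livers.

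Ptpn11 (ENSMUSG00000043733, chr5:121130533-121191397, minus strand), which held no seed word in its 3′ UTR, was at 9.43, 10.2 and 19.99 TPM in WT tumours and at 13.1, 12.99 and 17.7 TPM in GKO tumours. In non-tumours it was at 8.20, 12.7 and 12.5 TPM in WT and 11.3, 5.49 and 6.75 TPM in GKO, and the groups overlapped through the first GKO sample. The log2 fold changes were 0.20 with an SE of 0.32 in tumours and -0.49 with an SE of 0.30 in non-tumours (limma, adjusted p = 0.643). Normal livers of both genotypes lay between 6.11 and 8.34 TPM. Cyld (ENSMUSG00000036712, chr8:88697028-88751945, plus strand) was at 1.85, 1.75 and 1.04 TPM in WT tumours and at 2.04, 1.29 and 2.63 TPM in GKO tumours. In non-tumours and normal livers it ranged from 1.02 to 2.27 TPM, and no neighbours in the order of its 6 group means differed by more than their SDs. Its log2 fold change over the 3 tissues was 0.049 with an SE of 0.12.

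Ptpn22 and Atm lay below the filter and were not tested with limma. PTPN22 is a phosphatase of lymphocytes that dampens antigen receptor signalling, and ATM is the kinase that DNA double-strand breaks activate. Ptpn22 (ENSMUSG00000027843, chr3:103859795-103912247, plus strand) had 0 to 28 reads in a sample, or 0 to 0.447 TPM. The sample at 0, WT normal liver 2, allows up to 3 reads. The 8 T cell markers summed to no more than 16.3 TPM in any sample. GKO non-tumours held 0.396, 0.301 and 0.311 TPM of Ptpn22 and WT non-tumours 0.305, 0.127 and 0.159 TPM, and these groups overlapped. Over the 3 tissues the difference of mean log2(TPM + 1) was 0.050 (exact permutation within tissues, 2-sided p = 0.42).

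Atm (ENSMUSG00000034218, chr9:53439149-53536740, minus strand) had 4 to 63 reads in a sample. In WT tumours it was at 0.187, 0.0942 and 0.329 TPM and in GKO tumours at 0.241, 0.248 and 0.742 TPM. Non-tumours held 0.377, 0.190 and 0.301 TPM in WT and 0.556, 0.432 and 0.300 TPM in GKO, and normal livers 0.0570, 0.207 and 0.0371 TPM in WT and 0.485, 0.228 and 0.0909 TPM in GKO. The GKO mean was the higher one in all 3 tissues, and the samples of the genotypes overlapped in each. Over the 3 tissues the difference of mean log2(TPM + 1) was 0.19, with an unadjusted exact permutation p of 0.0275 (labels permuted within each tissue, 2-sided, smallest p possible 0.00025). This was the lowest of 9 such p-values, which otherwise ran from 0.194 (Bcl2) to 0.948 (Nlk). It was not adjusted for the 9 members, and these were chosen with results known, so it overstates the evidence for Atm. The permutation also took tumours and non-tumours as independent, although they may come from the same mice. In voom, fitted across all genes on the recovered reads, the log2 fold change of Atm over the 3 tissues was 0.93 with an adjusted p of 0.488. Leaving out any 1 of 8 samples took the exact p to between 0.0513 and 0.072 (without WT tumour 1, WT tumour 2, GKO tumour 3, WT non-tumour 2, GKO non-tumour 1, WT normal liver 1, WT normal liver 3 or GKO normal liver 1), and leaving out any other kept it under 0.05.

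Whether the genotype difference itself differed between tumours and non-tumours was tested as an interaction. None of 7 members was called, where 0.0142% of 14106 genes were called. All 7 differences were positive, beside 67.6% of all genes, whose median was 0.23 and moved to 0.0085 with median centring. Bcl2 had a difference of 0.67 with an SE of 0.28 (limma, unadjusted p = 0.0369, adjusted p = 0.475) and Gata6 a difference of 0.56 with an SE of 0.25 (unadjusted p = 0.0488, adjusted p = 0.475). These were the 2 members at an unadjusted p under 0.05, a level reached by 10.5% of the table, and with voom none of 9 members was called.

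Between tumours and non-tumours of WT mice none of 7 was called, beside 4.23% of 14003 genes (0 members and 19.9% of genes at an unadjusted p under 0.05, and 0 of 9 called with voom). Nlk lay lower in all 3 WT tumours than in any WT non-tumour, with a log2 fold change of -0.25 with an SE of 0.18, and Gata6 lay higher, with 0.37 and an SE of 0.19. Groups did not overlap for 24.8% of the genes tested in this comparison. The intervals were wide, for example -0.93 to 0.91 for Prox1 and -0.95 to 0.64 for Mcl1, so the count does not show that differences were small.

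In GKO mice 1 of 7 members was called, Gata6, which rose in tumours against non-tumours by a log2 fold change of 0.93 with an SE of 0.20 (limma, adjusted p = 0.0283). In this comparison 11.7% of 14092 genes were called and 7.75% were called higher, so a count of 1 is near the background. At an unadjusted p under 0.05 there were 3 members and 31.7% of all genes. The 3 GKO tumours, at 4.29 to 5.75 TPM, all lay above the 3 GKO non-tumours, at 1.77 to 2.39 TPM. Genes called higher outnumbered those called lower, 1092 to 560, and with median centring the split was 777 to 990. Gata6 was not called with median centring (0.69, adjusted p = 0.0502) or with no filter on low values (adjusted p = 0.0713), and without 1 sample its adjusted p was 0.0554 (GKO tumour 2), 0.0623 (GKO tumour 3), 0.0535 (GKO non-tumour 1), 0.0654 (GKO non-tumour 2) or 0.138 (GKO non-tumour 3). Ptpn11 and Bcl2 did not overlap between these groups either, as did not 38.3% of all genes. Ptpn11 had a log2 fold change of 0.86 with an SE of 0.29 (adjusted p = 0.0933, and 0.0429 without GKO non-tumour 1, which held 11.3 TPM), and Bcl2 had 0.60 with an SE of 0.21 (adjusted p = 0.104). GKO tumours enter this comparison as well as that with WT tumours, so the 2 share samples.

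**Figure D4:**
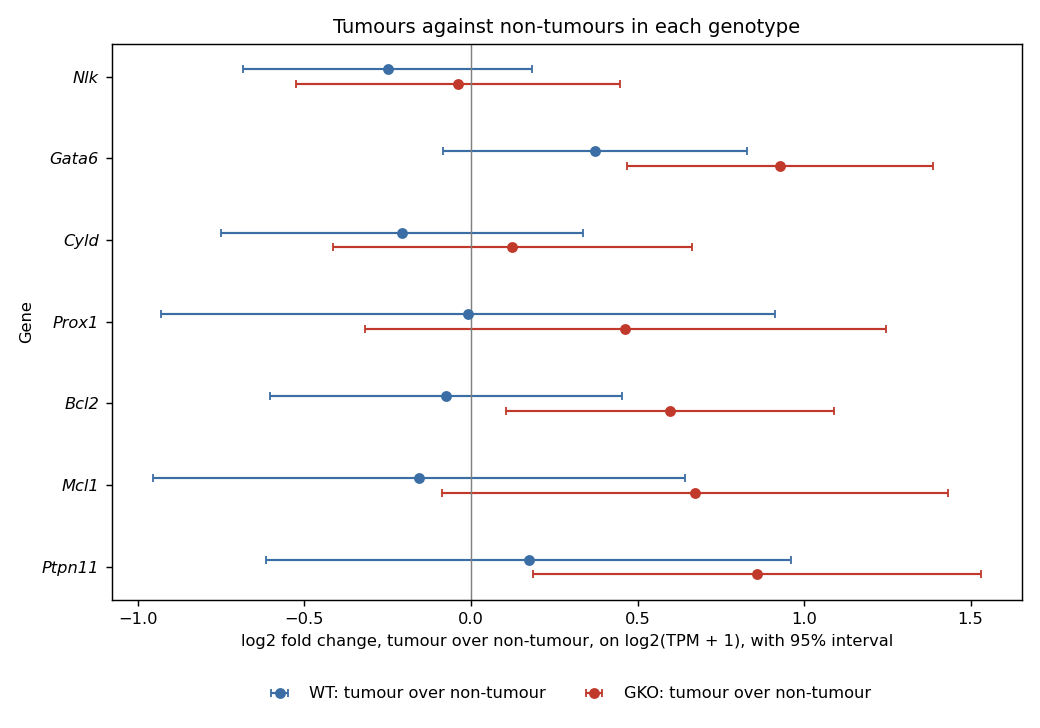
The x axis is the log2 fold change of tumours over non-tumours on the log2(TPM + 1) scale, with 95% intervals from limma, for 7 genes in WT (blue) and GKO (red) mice (3 against 3 samples each). The GKO value lies to the right of the WT value for all 7 genes. The interval of Gata6 in GKO mice, 0.47 to 1.39, lies farthest from 0, and the difference between genotypes was not called for any gene.

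After DEN, 0 of 7 members were called in WT non-tumours against WT normal livers, beside 0.00744% of 13440 genes (2 members and 24.4% of genes at an unadjusted p under 0.05, and 0 of 8 called with voom). Mcl1 was at 57.1, 113 and 67.4 TPM in WT non-tumours and at 33.0 to 41.5 TPM in WT normal livers, without overlap, as for Bcl2, also higher in non-tumours, and for 33.9% of the genes tested. Its log2 fold change was 0.98 with an SE of 0.28 (limma, unadjusted p = 0.0097, adjusted p = 0.134), and that of Ptpn11 0.58 with an SE of 0.23 (adjusted p = 0.184). In this comparison 79.7% of all genes were positive, with a median of 0.32 that moved to -0.051 with median centring. In GKO mice 0 of 6 were called, beside 0% of 13530 genes (0 members and 5.20% of genes at an unadjusted p under 0.05, and 0 of 9 called with voom), and Mcl1, at 42.0 to 84.6 TPM in GKO non-tumours and 44.8 to 70.1 TPM in GKO normal livers, had a log2 fold change of 0.075 with an SE of 0.30. Ptpn22, which was not tested, lay higher in all 3 GKO non-tumours than in GKO normal livers (0.0733 to 0.191 TPM), and 8.73% of the genes tested did not overlap there.

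The partners of these genes were read from lists of their pathways. No gene of any of 9 lists was called between GKO and WT in tumours, non-tumours or normal livers. Of 16 genes of the BCL-2 family, 14 were tested in tumours, where 7 were positive and the median log2 fold change was -0.026, beside 0.087 over all genes. Of 19 other published miR-181 targets, 16 were tested in tumours with 9 positive and a median of 0.079, and 14 in non-tumours with 2 positive and a median of -0.26, beside -0.15 over all genes. Of 13 partners of CYLD and regulators of NF-κB, all tested, 10 were positive in tumours (median 0.23) and 1 in non-tumours (median -0.22). The 12 tested genes of ATM signalling had 3 positive values in tumours and a median of -0.051. Of the 10 adaptors of SHP2 and RAS activators, 7 were positive in tumours, with a median of 0.037. The T cell receptor list (7 tested, 4 positive), the list of NLK, TAK1 and TCF/LEF (9 tested, 6 positive), the partners of PROX1 (7 tested, 4 positive) and the GATA factors and cofactors (3 tested, 2 positive) had medians of 0.050, 0.079, 0.0062 and 0.22 in tumours.

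Between tumours and non-tumours 2 of 89 tested list genes were called in WT, beside 4.23% of all genes, and 13 of 89 in GKO, beside 11.7%, so both totals lie near the background. With median centring 9 of these 13 were called in GKO, and Fos, Chek2, Trp53 and Shc1 were not. With no filter on low values 2 were, Dusp5 and Nfkbia. Among the other miR-181 targets Dusp5, which encodes a phosphatase that inactivates ERK, rose in tumours of both genotypes, with log2 fold changes of 3.41 with an SE of 0.25 in WT (limma, adjusted p = 0.00149) and 3.54 with an SE of 0.35 in GKO (adjusted p = 0.00465). In WT it was 1 of 16 tested genes of that list, and in GKO 4 of 16 were called, all higher. The other 3 were Fos (2.05), a part of the transcription factor AP-1, Timp3 (1.56), an inhibitor of matrix metalloproteinases, and Nrarp (1.39), a feedback inhibitor of Notch. In GKO tumours the ATM list held 2 called genes of 10 tested, both higher, Chek2 (0.99), a kinase below ATM, and Trp53 (0.80), the gene of p53. The list of NLK and TCF/LEF held 3 of 9, with Ctnnb1, the gene of β-catenin, higher by 1.95 and Hipk2 and Tcf7l2 lower, at -0.88 and -0.84. Nfkbia, the gene of the NF-κB inhibitor IκBα, was the 1 called gene of 13 in the list around CYLD and fell by 1.18 on the log2 scale. Bik, a death-promoting member of the BCL-2 family, fell by 1.66 and was the 1 called gene of 14, and Shc1 (0.84), an adaptor of receptor signalling, and Kdm1a (0.95), a histone demethylase and partner of PROX1, were the 1 called gene of 10 and of 7. In WT tumours Zap70, the kinase of the T cell receptor, rose by 1.81 as the 1 called gene of 7, in samples whose T cell markers summed to 4.44, 16.3 and 2.696 TPM in tumours and 14.4, 4.92 and 3.57 TPM in non-tumours. No list gene was called between non-tumours and normal livers in either genotype.

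Finally, the genes whose log2(TPM + 1) ran most closely with each member over the 18 samples were taken from 11897 genes averaging 1 TPM or more. These correlations describe 18 samples that share tissue, genotype and depth. The closest was Cul3 to Ptpn11 (r = 0.967), followed for this gene by Ccny (r = 0.962). Mcl1 ran with Yy1 (r = 0.940) and Fbxo38 (r = 0.916), Gata6 with Csnk1e (r = 0.927) and Mta1 (r = 0.917), Prox1 with Prepl (r = 0.894) and Ttc23 (r = 0.885), and Bcl2 with Zfp422 (r = 0.886) and Mir6358 (r = 0.879). Lower values were found for Nlk with Rin3 (r = 0.858) and Tom1 (r = 0.824), Cyld with Klc4 (r = 0.824) and Vars2 (r = 0.807), Atm with Ino80d (r = 0.860) and Tsc1 (r = 0.859), and Ptpn22 with Myo1g (r = 0.864) and Clec4a1 (r = 0.782). Among the members themselves the highest values were those of Mcl1 with Ptpn11 (r = 0.8002), Prox1 with Ptpn11 (r = 0.781) and Bcl2 with Mcl1 (r = 0.765). Gata6 correlated with Ptpn11 (r = 0.707), Mcl1 (r = 0.699) and Bcl2 (r = 0.687), Ptpn22 with no other member above 0.182, and Nlk with Bcl2 hardly at all (r = 0.0778).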

How the data were processed

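The authors aligned the reads to mm10 with STAR 2.7.3a, counted them on genes with featureCounts 2.0.0 and deposited TPM; the annotation, strand setting and TPM formula are not given in the sources used here. Multiplying the deposited TPM by exonic length (GENCODE M21) gave whole reads, within 0.02, for 97.95% to 98.67% of values up to 30 reads. Depth was 11925055 to 20751348 reads on genes.

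Genes averaging 0.5 TPM or more in a comparison were tested with limma 3.58.1 (R 4.3.3, eBayes with trend) on log2(TPM + 1), which understates changes of low genes. Single members had exact permutation tests. Python 3.11.15 did the rest. All 9 members are named throughout, list genes where called (up to 4 per list with the largest change), and the 2 genes nearest each member. Members and lists were chosen with earlier results of these data known. Deviations of same-numbered WT and GKO tumours correlated at 0.101, 0.120 and 0.197, and no label ties these tumours to each other. Same-numbered samples of the other groups compared gave -0.315 to 0.249. Whether the numbers pair any samples is therefore not known, and the replicate block built on them is only an alternative fit. On simulated tumours 138 of 200 genes shifted by 2 on the log2 scale were called, with 12 false calls. The shifted genes were drawn from those expressed above the level of Nlk, Gata6, Cyld and Bcl2. The largest log2 fold change of a member in tumours was 0.54, so this share does not give the power for the members.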

Additional observations from a re-analysis of the deposited data

How the results depend on the processing

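Alternatives were a pseudocount of 0.1, no filter, a filter at 5 TPM, median centring, quantile normalization, no trend, voom on recovered reads, a replicate block, a joint fit of the 18 samples and leaving out each replicate. Averaging WT tumours 1 and 2, the most alike of all replicate pairs (r = 0.982), and the alternatives for exact tests, were chosen after seeing the data. No member was called between GKO and WT under any of them. In GKO tumours against GKO non-tumours the 1 member called became 0 with no filter, the 5 TPM filter (which leaves Gata6 out), median centring and the replicate block (Gata6 adjusted p = 0.0579), and 3 with the joint fit (Gata6, Bcl2 and Ptpn11). Without a replicate it was 0 to 1. The replicate block, whose numbers no label ties to pairs, changed no other call of a member. Members with an exact p under 0.05 numbered 0 to 1 without a replicate, and the 1 was Atm except without WT non-tumour 2, where it was Bcl2 (p = 0.0375). Over all genes, the 592 called between WT tumours and non-tumours became 361 with the block, 1649 in the joint fit and 163 to 1363 without a replicate, the 1652 of GKO became 2722 in the joint fit and 229 at the lowest without a replicate (GKO non-tumour 3), and the 3 between genotypes in tumours became 107 in the joint fit and 147 without WT tumour 3. Bcl2, Ptpn22 and Atm rest on few reads.

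Signs of some log2 fold changes turned, the largest of them 0.30 before (Prox1 in WT non-tumours against normal livers), and the cause was not tested. Under median centring and then quantile normalization these were Nlk between genotypes in tumours (-0.016, -0.022), Cyld (-0.058, -0.060) and Ptpn11 (-0.063, -0.069) in normal livers, Cyld in GKO tumours against non-tumours (-0.11, -0.018, and -0.067 with voom), Nlk (-0.094, -0.043), Cyld (-0.21, -0.12) and Prox1 (-0.071, -0.086) in WT non-tumours against normal livers, and Cyld (-0.084, -0.10) and Ptpn11 (-0.044, -0.027) in the same comparison of GKO. Centring alone turned Cyld (0.057) and Bcl2 (0.031) between genotypes in non-tumours, Nlk in the interaction (-0.0072), Bcl2 in WT non-tumours against normal livers (-0.094) and Mcl1 in GKO (-0.033). Voom turned Nlk over the 3 tissues (0.018), and averaging the tumours turned Prox1 in WT tumours against non-tumours (0.20). Of 574 such values, 528 kept sign and call or, where there was no test, moved by less than 1 SD.

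Leaving out 1 replicate turned the sign of 20 of 62 values. Between genotypes the ranges were -0.014 to 0.071 (Nlk) and -0.083 to 0.67 (Prox1) in tumours, -0.21 to 0.017 (Bcl2) in non-tumours, -0.14 to 0.16 (Cyld) and -0.055 to 0.14 (Ptpn11) in normal livers, and -0.040 to 0.048 (Nlk), -0.0071 to 0.087 (Cyld) and -0.18 to 0.033 (Prox1) over the 3 tissues. In WT tumours against non-tumours they were -0.43 to 0.26 (Prox1), -0.15 to 0.076 (Bcl2), -0.36 to 0.13 (Mcl1) and -0.15 to 0.36 (Ptpn11), and in GKO -0.19 to 0.081 (Nlk) and -0.029 to 0.30 (Cyld). In non-tumours against normal livers they were -0.012 to 0.29 (Cyld) in WT, and -0.12 to 0.14 (Nlk), -0.29 to 0.17 (Gata6), -0.030 to 0.12 (Cyld), -0.19 to 0.30 (Mcl1) and -0.20 to 0.26 (Ptpn11) in GKO.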
